A study of Homo sapiens with 4 samples.

Results

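The genes described here are 10 Krüppel-like factors, KLF2, KLF3, KLF4, KLF5, KLF6, KLF7, KLF9, KLF10, KLF11 and KLF13, taken by symbol from a deposited table of 16839 gene rows, in which all 10 were found. The group was put together with KLF4 at its head because KLF4 was already known to be far higher in the SETD8 knockdown libraries, so the difference between groups for these genes is given as a description and not as a test. The cells were D458, an established line from a human medulloblastoma, a cerebellar tumour, in which MYC is amplified. The shNull group (the controls) held 2 libraries from cells with a non-targeting short hairpin, and the shSETD8 group (the knockdown) held 2 libraries from cells with a lentiviral hairpin against SETD8, the gene of the histone H4 lysine methyltransferase also called KMT5A. Cells of both groups had been through lentiviral transduction with polybrene and puromycin selection at 1 µg/mL for 14 days. The libraries of a group came from separate clones, per the labels, and the labels list several catalogue hairpins without saying which one a shSETD8 clone received.

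Krüppel-like factors are transcription factors that bind GC-rich and CACCC sequences through zinc fingers at their C-terminal end, and their N-terminal parts decide which cofactors they bring. KLF2, KLF4, KLF5, KLF6 and KLF7 mostly activate transcription with histone acetyltransferases, KLF3 represses through the co-repressor CtBP, and KLF9, KLF10, KLF11 and KLF13 carry a motif that binds the co-repressor SIN3A. Several of them are switched on within minutes of growth factor or stress signals, and KLF4 is best known as one of the factors that reprogramme somatic cells to pluripotency. In neurons, studied mainly in the mouse and rat, KLF4 and KLF9 hold back axon growth and KLF7 favours it.

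The RefSeq table (GRCh38.p14) held start sites for 8 of the 10 genes. The 250 bases before the start are shown for KLF4 and KLF13, the members that DESeq2 called in opposite directions, in windows that overlap no exon annotated on the same strand. Capitals mark the GC box GGGCGG, the CACCC box CACCC and the E-box CACGTG on either strand, the GC and CACCC boxes being the kinds of sequence that the family binds and the E-box the one that MYC binds. The KLF4 window is chr9:107489770-107490019 on the minus strand and the KLF13 window chr15:31326585-31326834 on the plus strand.
KLF4: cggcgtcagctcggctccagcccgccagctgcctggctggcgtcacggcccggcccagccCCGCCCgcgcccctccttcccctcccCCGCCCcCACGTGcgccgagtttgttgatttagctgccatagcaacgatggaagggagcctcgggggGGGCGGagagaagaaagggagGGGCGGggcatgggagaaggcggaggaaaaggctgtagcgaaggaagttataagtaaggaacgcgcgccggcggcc
KLF13: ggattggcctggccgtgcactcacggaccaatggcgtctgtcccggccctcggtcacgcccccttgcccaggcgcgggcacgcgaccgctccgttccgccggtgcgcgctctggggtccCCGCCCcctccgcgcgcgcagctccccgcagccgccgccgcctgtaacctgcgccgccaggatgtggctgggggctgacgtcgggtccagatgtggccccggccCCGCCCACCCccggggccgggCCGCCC
The KLF4 window held 4 GC boxes, 0 CACCC boxes and 1 CACGTG, and was 69.2% G and C. The KLF13 window held 3 GC boxes, 1 CACCC box that shares bases with a GC box, and 0 CACGTG, and was 78.8% G and C. Of 35116 start sites in the table, 42.6% held a GC box, 54.7% a CACCC box and 6.34% a CACGTG in the same length. The median G and C share of all these windows was 58%, below that of both windows shown. Among windows not shown, that of KLF6 and 1 each of KLF7 and KLF11 also held 1 CACGTG. Those of KLF2, KLF5 and KLF9 held 0. Neither window held an AP-1 motif (TGANTCA), which 6.57% of all windows held, nor a CArG box, which 1.16% held. These letters are a description of the windows, since binding was not measured.

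SETD8 itself stood at 38.9 and 41.6 CPM in shNull replicates 1 and 2 and at 14.0 and 26.4 CPM in shSETD8 replicates 1 and 2 (CPM, read counts scaled to the normalised library size). That left 34.7% and 65.5% of the control mean in mRNA, where the labels state an 80% knockdown. The treatment label does not say how that figure was measured, so the 2 may be unlike measures. Total counts ran from 40908334 to 52627366 per library. Of 7 measured markers of this tumour type, MYC ran from 2597 to 2953 CPM over the 4 libraries with overlapping groups, and OTX2 was lower without overlap, at 2481 and 2318 CPM in the controls and 2115 and 2185 CPM under knockdown. GABRA5 was higher without overlap, at 41.2 and 47.8 against 53.1 and 61.3 CPM. NRL differed most between the knockdown clones, at 22.3 and 170.4 CPM in replicates 1 and 2 around 45.7 and 36.9 CPM in the controls, and CRX, IMPG2 and EYS overlapped. Of these 7, edgeR and DESeq2 called 0, with 1 (GABRA5) at an unadjusted p under 0.05. Of all genes, edgeR called 0% and DESeq2 1.94%, and 10.8% stood under that unadjusted p in edgeR. The shSETD8 libraries differed more from each other than the shNull libraries did, with an SD of log2 differences of 0.508 against 0.211 over the 11600 genes that averaged 100 normalised counts or more. The p-values behind the counts of calls set the difference between groups against the spread between libraries from separate clones. With no repeat library of a clone, the spread between clones and that between libraries cannot be told apart.

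KLF4, which in the gut and skin drives epithelial differentiation, had 9 and 3 counts in the controls and 336 and 563 counts under knockdown. On the normalised scale that is 0.204 and 0.0722 CPM against 6.41 and 11.5 CPM. Both shSETD8 libraries lay far above both shNull libraries. Pooled counts gave a ratio of 63.4 (exact 95% interval 36.1 to 123, for counting error only). The log2 fold change in edgeR was 5.98 ± 0.58 (SE, n = 2 libraries per group), and it lay between 5.44 and 6.91 when each library was left out in turn. KLF4 passed the filter on low counts only through the shSETD8 libraries. The higher KLF4 level was in shSETD8 replicate 2, the clone that kept more SETD8 mRNA. A relation of KLF4 to the SETD8 level was not tested, and 2 clones are too few to show one.

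KLF2, a close relative of KLF4 and a regulator of endothelial and T cell quiescence, had 0 counts in both shNull libraries, 34 counts in shSETD8 replicate 1 and 4 counts in replicate 2. These counts were 0.648 and 0.0819 CPM in the shSETD8 libraries. Against a floor of 3 counts in each shNull library, a mean of 0.0701 CPM, replicate 1 was at least 9.26-fold higher. The 4 counts of replicate 2 lay close to that floor, so the higher level of KLF2 rests on replicate 1. KLF2 was the 1 member that the filter removed, and it has no fitted fold change in the main test.

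**Figure D1:**
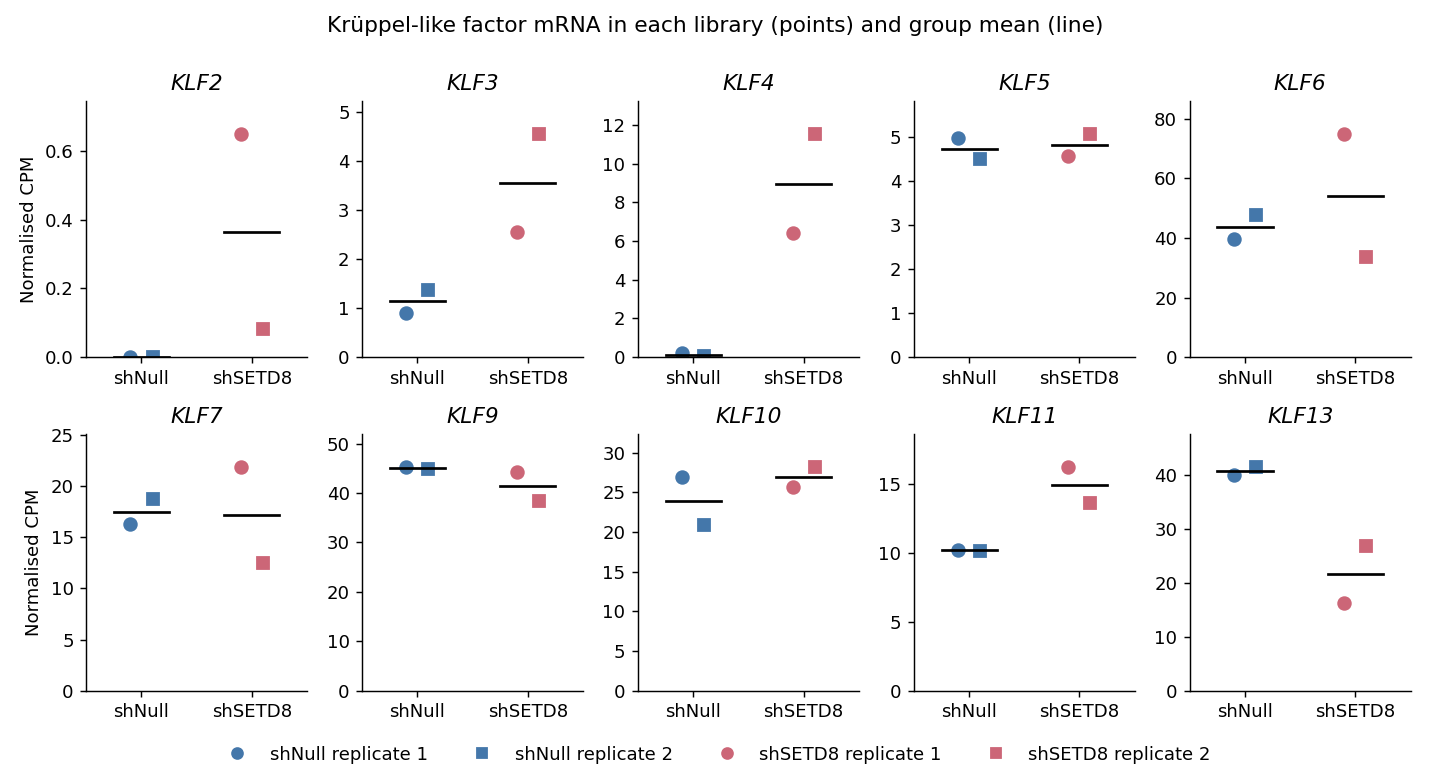
Normalised CPM of the 10 Krüppel-like factors in each library (circles replicate 1, squares replicate 2), with the group mean as a line and a vertical axis from 0 for each gene. KLF4 was at 0.204 and 0.0722 CPM in the controls and at 6.41 and 11.5 CPM under knockdown, and KLF13 at 40.0 and 41.5 CPM in the controls and at 16.3 and 26.9 CPM under knockdown.

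The other activators stood near the controls or split between the clones. KLF5, which sustains proliferation in intestinal crypts, stood at 4.96 and 4.50 CPM in the controls and at 4.56 and 5.06 CPM under knockdown, and the groups overlapped, with a log2 fold change of 0.024 ± 0.22 (SE, n = 2 per group). KLF6, a factor induced by tissue injury, stood at 39.7 and 47.6 CPM in shNull, at 74.8 CPM in shSETD8 replicate 1 and at 33.5 CPM in replicate 2. One shSETD8 clone was therefore above both shNull libraries and the other below both. The log2 fold change of KLF6 was 0.31 ± 0.38 with all 4 libraries, 0.78 without shSETD8 replicate 2 and -0.38 without shSETD8 replicate 1. KLF7, a neuronal factor, split in the same way, at 21.8 and 12.5 CPM in shSETD8 replicates 1 and 2 around 16.3 and 18.7 CPM in shNull. Its log2 fold change was -0.027 ± 0.28, and 0.32 and -0.49 without shSETD8 replicate 2 and replicate 1. The annotation places KLF7-IT1 and MIR2355 over KLF7 on the same strand and MIR7845 on the opposite strand.

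KLF3, the CtBP-binding repressor, which in the mouse restrains adipocyte and erythroid genes, had 40 and 57 counts in the controls and 134 and 222 under knockdown. Its levels were 0.906 and 1.37 CPM against 2.56 and 4.55 CPM, with both shSETD8 libraries above both shNull libraries. The log2 fold change was 1.64 ± 0.42 (SE, n = 2 per group), and 1.17 to 1.996 when each library was left out in turn. Like KLF4, KLF3 was higher in shSETD8 replicate 2 than in replicate 1. An antisense gene, KLF3-AS1, overlaps KLF3, and the sources used here do not say whether counting used strand, so reads of the pair may not have been told apart.

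Among the SIN3A-binding members, KLF13, first described as an activator of the chemokine gene CCL5 in T cells, stood at 40.0 and 41.5 CPM in the controls and at 16.3 and 26.9 CPM under knockdown. Both shSETD8 libraries lay below both shNull libraries, and the lower level was in replicate 1, the clone with less SETD8 mRNA. A relation of KLF13 to the SETD8 level was not tested, and 2 clones are too few to show one. The mean was 40.7 ± 1.04 CPM in the controls and 21.6 ± 7.55 CPM under knockdown (SD, n = 2 each), a log2 fold change of -0.92 ± 0.25 (SE) that lay between -1.325 and -0.60 with each library left out. A pseudogene, UBE2CP4, lies within KLF13 on the same strand.

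KLF11, a TGF-beta-inducible repressor, stood at 10.2 CPM in each shNull library and at 16.2 and 13.6 CPM in shSETD8. Both shSETD8 libraries were higher, with a log2 fold change of 0.55 ± 0.16 (SE, n = 2 per group) and a range of 0.41 to 0.67 with each library left out. The annotation places an antisense gene over KLF11 as well. KLF10, its close relative and also TGF-beta-inducible, stood at 27.0 and 20.9 CPM in the controls and at 25.7 and 28.1 CPM under knockdown, so the groups overlapped. Its log2 fold change was 0.17 ± 0.17, and -0.008 without shNull replicate 2. KLF9, which glucocorticoid and thyroid hormone induce in neurons, stood at 45.2 and 45.0 CPM in the controls and at 44.3 and 38.5 CPM under knockdown. Both shSETD8 libraries were below, replicate 1 by little, and the log2 fold change was -0.12 ± 0.12.

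**Figure D2:**
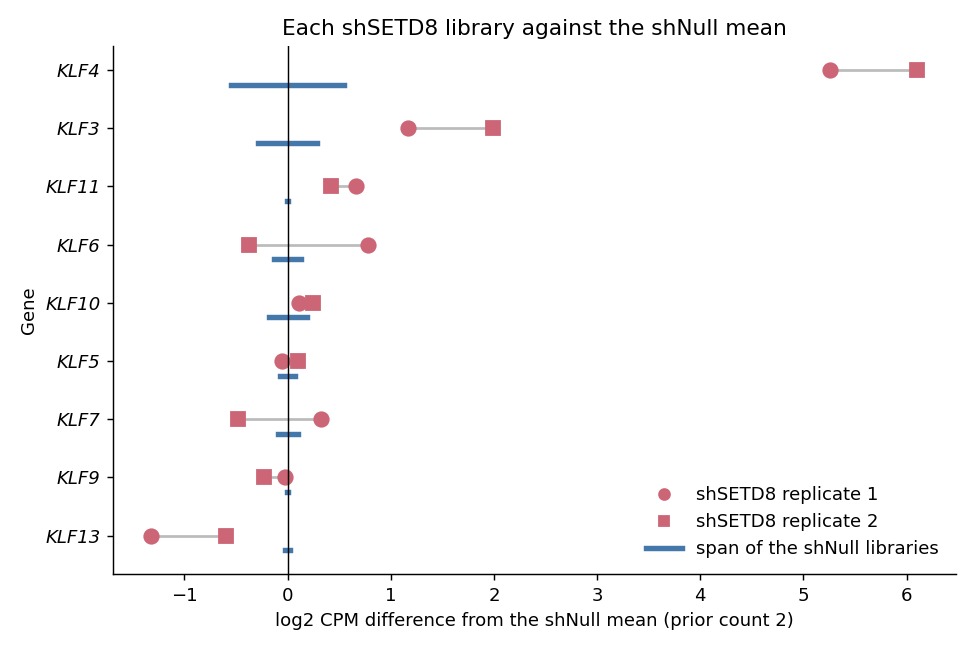
Difference in log2 CPM (prior count of 2) between each shSETD8 library and the shNull mean for the 9 tested members, with the span of the shNull libraries in blue under each gene. KLF4, KLF3, KLF11 and, by less, KLF10 (0.111 and 0.244) lie right of 0 in both shSETD8 libraries. KLF13 and, by less, KLF9 (-0.026 and -0.227) lie left of 0 in both. KLF6 (0.78 and -0.37), KLF7 (0.32 and -0.48) and, by less, KLF5 (-0.051 and 0.098) lie on opposite sides in replicates 1 and 2.

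Across the list, edgeR's quasi-likelihood test called 0 of 9 tested members at an adjusted p under 0.05, as it called 0% of all 14546 genes tested. At an unadjusted p under 0.05 it gave 4 members (KLF3, KLF4, KLF11 and KLF13), where 10.8% of all genes stood. DESeq2 called 2 of 9, KLF4 higher and KLF13 lower, where it called 1.94% of all genes (0.928% higher and 1.02% lower), and limma-voom called 0, as it called 0% of all genes. The groups did not overlap for 5 of the 9 members, against 45.3% of all genes tested. Of these, 3 were higher in shSETD8 (22.9% of all genes) and 2 were lower (22.4% of all genes). The median log2 fold change of the 9 was 0.17 and that of all genes 0.007, and 6 of 9 lay above 0, as 51.2% of all genes did. The change reached 1 in size for 2 members, KLF3 and KLF4, as it did for 5.07% of all genes. The members were chosen with this contrast known, so nothing is read from these counts. Without shSETD8 replicate 1 edgeR called 3 of 9 members (KLF3, KLF4 and KLF13) and 9.55% of all genes. Without shSETD8 replicate 2 it called 6 of 10 (KLF2, KLF3, KLF4, KLF6, KLF11 and KLF13) and 17.2% of all genes, and without either shNull library it called 0 of 10.

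The clones of a group also differed in these genes. The gap between the shSETD8 libraries reached 1 on the log2 scale for KLF6 (-1.16 for replicate 2 minus replicate 1), as it did for 9.66% of all genes. For KLF4, KLF3, KLF7 and KLF13 the gap lay between 0.73 and 0.84 in size, wider than in 84.6% to 87.4% of all genes. Replicate 2 was the higher one for KLF3, KLF4 and KLF13 and the lower one for KLF6 and KLF7. KLF5, KLF9, KLF10 and KLF11 had gaps of 0.25 or less. Between the shNull libraries the gap reached 1 for KLF4, which had 9 and 3 counts there, and for 2.01% of all genes.

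Levels of different genes were compared per kilobase of merged exons (GENCODE v29, GRCh38; the gene models behind the deposited counts were not stated). Of 16 KLF genes in the table, KLF4 ranked 15 in the controls at 0.0695 and 0.0246 CPM per kb and stood at 2.19 and 3.93 CPM per kb in shSETD8, where its mean ranked 8. The most abundant of the 10 genes in shNull was KLF9 at 8.73 and 8.69 CPM per kb, above both values of KLF6 (6.65 and 7.96 CPM per kb). KLF6, KLF10 (6.74 and 5.23 CPM per kb) and KLF13 (5.81 and 6.03 CPM per kb) followed, and KLF10 overlapped both of its neighbours. KLF11 (2.38 and 2.37) lay above KLF7 (1.89 and 2.17) and KLF5 (1.323 and 1.20), and KLF3 (0.151 and 0.229) followed, all in CPM per kb. The summed CPM of the 10 genes was 184.5 and 189.8 in the controls and 213.2 and 174.5 under knockdown, so the sum did not separate the groups. KLF4 made up 0.110% and 0.038% of that sum in shNull and 3% and 6.61% in shSETD8.

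**Figure D3:**
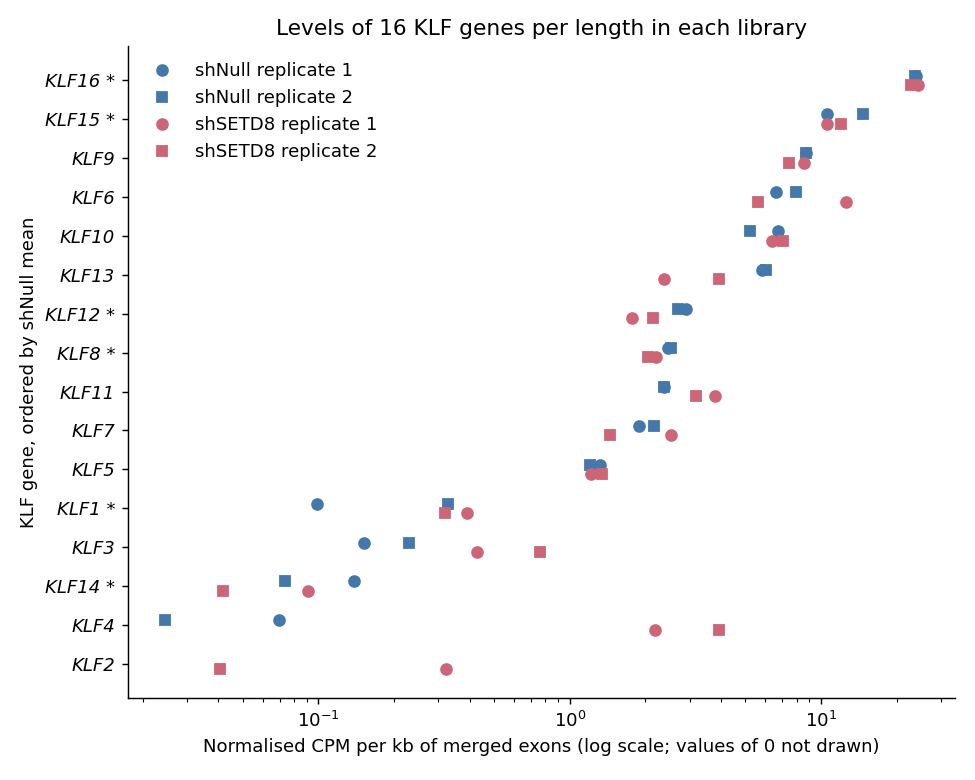
Normalised CPM per kb of merged exons on a log axis for 16 KLF genes in each library, ordered by the shNull mean, with an asterisk on the 6 genes outside the 10 described. KLF4 stands at 0.0695 and 0.0246 in the controls and at 2.19 and 3.93 under knockdown, and KLF2, at 0 in shNull, is drawn for shSETD8 alone.

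The remaining KLF genes and the related SP factors were read from lists chosen by family and role. Of 6 other KLF genes tested, 5 had a log2 fold change below 0 (median -0.20). DESeq2 called 0, where it called 1.94% of all genes, and edgeR called 0. At an unadjusted p under 0.05 edgeR gave 1, where 10.8% of all genes stood. That gene was KLF12, a CtBP-binding repressor related to KLF3, at 30.8 and 28.8 CPM in the controls and at 18.8 and 22.8 CPM under knockdown (log2 fold change -0.52 ± 0.15, SE, n = 2 per group). KLF8, the other close relative of KLF3, stood at 12.5 and 12.8 CPM in the controls and at 11.2 and 10.4 CPM under knockdown. The log2 fold change of KLF8 was -0.23 ± 0.15 (SE, n = 2 per group), and its groups, like those of KLF12, did not overlap, as was so in the lower direction for 22.4% of all genes. KLF16, the most abundant per length, ran from 67.4 to 71.8 CPM, and KLF15 from 27.3 to 37.9 CPM with overlapping groups. All 5 tested SP factors had values below 0 (median -0.15), with 0 at an unadjusted p under 0.05 and 0 called by edgeR or DESeq2. SP3 stood at 99.5 and 104.5 CPM in the controls and at 88.5 and 87.9 CPM under knockdown, and SP1, the general activator at GC boxes, at 135.5 and 145.6 CPM against 131.4 and 123.5 CPM.

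Cofactors that the family uses differed by small amounts. Of 10 genes for co-repressors, deacetylases and acetyltransferases, the median log2 fold change was -0.026. Here edgeR called 0, with 2 at an unadjusted p under 0.05, where 10.8% of all genes stood. DESeq2 called 1, where it called 1.94% of all genes. That was the deacetylase HDAC2, at 520.6 and 484.1 CPM in the controls and at 382.2 and 383.3 CPM under knockdown. The acetyltransferase EP300 stood at 164.1 and 178.5 CPM in the controls and at 135.2 and 119.1 CPM under knockdown (log2 fold change -0.43 ± 0.11, SE, n = 2 per group). SIN3A ran from 100.2 to 104.4 CPM and CTBP1 from 146.4 to 156.7 CPM over the 4 libraries, with overlapping groups. Of 7 genes for turnover of KLF proteins (median -0.094), edgeR and DESeq2 called 0, with 1 at an unadjusted p under 0.05. It was VHL, at 98.6 and 98.5 CPM in the controls and 79.4 and 80.9 CPM under knockdown, while the KLF5 ligase WWP1 stood at 43.0 and 44.5 CPM against 54.3 and 49.6 CPM.

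Pathways that induce members were also read. The ERK5 and MEF2 genes, which induce KLF2 and KLF4 in endothelium, had a median log2 fold change of -0.006 over 7 genes. They had 0 at an unadjusted p under 0.05, where 10.8% of all genes stood. They had 0 calls by edgeR or DESeq2, where DESeq2 called 1.94% of all genes. The serum response factor group had a median of -0.10 over 6 genes, likewise with 0 at an unadjusted p under 0.05 and 0 calls, and its ternary complex factors ELK1, ELK3 and ELK4 had values of 0.008 ± 0.095, -0.81 ± 0.33 and -0.26 ± 0.10 (log2 fold change ± SE, n = 2 per group). The TGF-beta and SMAD list, upstream of KLF10 and KLF11, had a median of 0.11 over 10 genes and the same counts of 0. The ligand gene TGFB1 stood at 73.0 and 69.2 CPM in the controls and at 89.5 and 80.3 CPM under knockdown. The signal transducer SMAD2 stood at 42.7 and 43.5 CPM in the controls and at 66.5 and 46.9 CPM under knockdown. The receptor gene TGFBR1 was lower, at 141.7 and 124.3 CPM in the controls and at 123.1 and 97.4 CPM under knockdown. Of the 10 genes of this list, 5 had a log2 fold change above 0, as 51.2% of all genes did, and 5 below. The glucocorticoid and thyroid hormone list, upstream of KLF9, had a median of -0.026 over 8 genes, 1 at an unadjusted p under 0.05 (TSC22D3, under 0.5 CPM in every library) and 0 calls by edgeR or DESeq2. The glucocorticoid receptor gene NR3C1 stood at 127.1 and 107.1 CPM in the controls and at 82.2 and 102.1 CPM under knockdown. Of the partners of KLF4 in reprogramming 2 were tested, and POU5F1 stood at 4.58 and 4.83 CPM in the controls and at 1.96 and 2.89 CPM under knockdown, with 0 calls by either tool and 1 at an unadjusted p under 0.05.

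Genes reported elsewhere as targets gave small values beside that of KLF4. Of 10 genes reported as activated by KLF2, KLF4 or KLF6, 4 were tested and all lay above 0 (median log2 fold change 0.59). There were 0 calls by edgeR or DESeq2 and 2 genes at an unadjusted p under 0.05. Of all genes, 51.2% lay above 0, 10.8% stood under that unadjusted p and DESeq2 called 1.94%. The sphingosine phosphate receptor S1PR1, a KLF2 target in T cells, stood at 3.83 and 3.82 CPM in the controls and at 5.11 and 9.69 CPM under knockdown. NOS3, a KLF2 and KLF4 target in endothelium, stood at 14.3 and 15.4 CPM against 21.6 and 18.0 CPM, and the KLF6 target ENG at 2.74 and 4.30 CPM against 5.13 and 6.88 CPM. The cell cycle inhibitor CDKN1A, a KLF4 target, stood at 35.1 and 18.3 CPM against 35.5 and 28.2 CPM, with overlapping groups. For 5 tested genes reported as repressed by KLF4, the median was -0.10, with 0 calls by edgeR or DESeq2 and 2 at an unadjusted p under 0.05. CCNB1 stood at 211.5 and 200.7 CPM in the controls and at 163.8 and 164.0 CPM under knockdown. ODC1 stood at 649.5 and 600.0 CPM against 856.9 and 659.2 CPM. CCND1, which the filter removed, was higher under knockdown, with 2 and 1 counts in the controls and 18 and 8 counts in shSETD8.

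**Figure D4:**
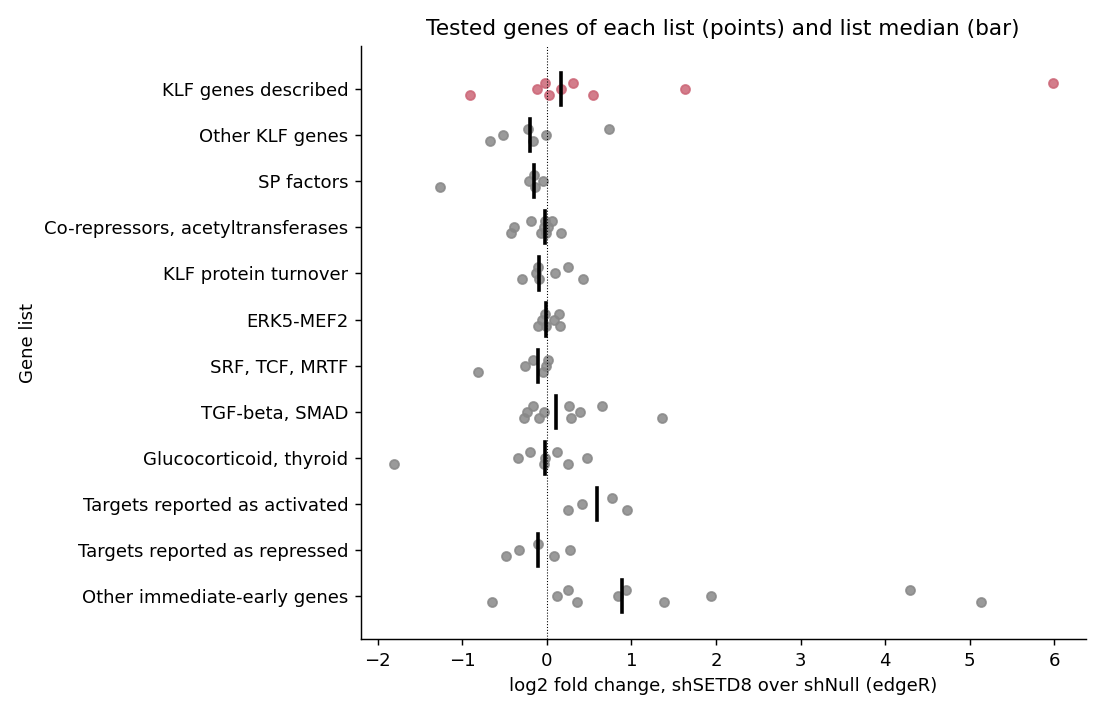
Log2 fold change (shSETD8 over shNull, edgeR) of each tested gene, by list, with the list median as a bar. The 9 tested Krüppel-like factors have a median of 0.17 with KLF4 at 5.98, and the other immediate-early genes have one of 0.89 with FOSB at 5.13 and FOS at 4.30.

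Some other immediate-early genes were higher in both shSETD8 libraries, as KLF4 was. FOSB stood at 0.997 and 2.19 CPM in the controls and at 34.8 and 76.8 CPM under knockdown, and FOS at 1.495 and 7.99 CPM against 53.5 and 132.5 CPM. EGR1 was at 8.72 and 22.1 CPM against 27.6 and 91.3 CPM, whereas ATF3 was at 17.0 and 13.8 CPM against 9.57 and 10.1 CPM. The groups overlapped for IER2, at 23.7 and 29.5 against 24.4 and 39.0 CPM, and for IER3, at 1.61 and 1.49 against 1.24 and 2.13 CPM. Of the 10 companions tested 9 had a log2 fold change above 0, as 51.2% of all genes did, and 7 were higher without overlap, against 22.9% of all genes. Here edgeR called 0, with 6 at an unadjusted p under 0.05 against 10.8% of all genes, and DESeq2 called 4 (FOS, FOSB, JUN and DUSP1) against 1.94% of all genes. This list too was chosen with earlier results of these data known. Among the 11599 other genes that averaged 100 normalised counts or more, the 5 nearest to KLF4 in centred log2 CPM over the 4 libraries were FOSB, SLC16A3, KRT18, PDE6H and FOS. Their Euclidean distances to KLF4 were 1.68, 2.15, 2.25, 2.49 and 2.72, where the length of the KLF4 pattern itself is 5.76. These 5 genes were picked by nearness to KLF4 over these same 4 libraries. A pattern shared with KLF4 follows from that choice, so nothing is read from it. In shSETD8, replicate 2 was the higher for KLF4 and for all 5. In shNull, replicate 2 was the higher for FOSB, FOS, PDE6H and KRT18 and the lower for KLF4 and SLC16A3.

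Markers of other cell types in which KLF2 or KLF4 is abundant were checked. The summed CPM of 5 measured epithelial markers was 0.725 and 1.11 in the controls and 4.60 and 12.04 under knockdown, carried by KRT8 and KRT18. KRT8 had 0.068 and 0 CPM in the controls and 1.28 and 4.51 CPM under knockdown, and KRT18 had 0.159 and 0.313 CPM against 2.52 and 6.31 CPM. DESeq2 called both higher, where it called 0.928% of all genes higher, and edgeR called neither. Like KLF4, both passed the filter on low counts only through the shSETD8 libraries. The marker lists were chosen with earlier results of these data known, so nothing is read from these calls. The defining epithelial markers EPCAM and CDH1 were at 0 to 0.0962 CPM and at 0 to 0.153 CPM over the 4 libraries, so they were near 0 in both groups. The summed CPM of 3 measured endothelial markers was 1.07 and 1.28 in the controls and 1.30 and 0.737 under knockdown, with KDR and VWF near 0. The 5 measured myeloid markers summed to 5.71 and 6.47 CPM in the controls and 4.12 and 6.33 CPM under knockdown. The 5 measured fibroblast markers summed to 70.6 and 61.2 CPM in the controls and 41.3 and 50.6 CPM under knockdown, a sum carried by DCN and LUM, of which DESeq2 called LUM lower. The fibroblast markers did not move together, since COL1A1 stood at 1.88 and 1.97 CPM in the controls and at 3.81 and 4.81 CPM under knockdown, and PDGFRB at 5.73 and 8.18 against 9.31 and 11.1 CPM, with 0 calls for either by edgeR or DESeq2. The part of the keratin difference in the KLF4 difference was not tested, and in bulk RNA fewer cells of a type and less RNA per cell cannot be told apart.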

How the data were processed

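Poly(A)-selected, stranded libraries of D458 cells were read as single reads of 50 bases. The submitters' processing notes name the build hg19 (GRCh37), the aligner STAR 2.4.0.1, DESeq 1.32.0, and for read trimming and quality Trimmomatic 0.36 and FastQC 0.10.1. The authors deposited whole-number counts per gene, not normalised, and the sources used here state neither the counting program nor its strand setting. Another 2 columns of counts matched no sample and were not used.

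Groups follow the treatment label, with 2 libraries each, numbered in record order, so the numbers pair nothing. Chi-square per gene between libraries was 16.3 in shNull and 71.0 in shSETD8, so no library was counted as a repeat of another. The main test was edgeR 4.0.16 (R 4.3.3), quasi-likelihood F tests with TMM and filterByExpr, which kept 14546 genes and removed 2293, with Benjamini-Hochberg adjustment over all of them. Its lowest adjusted p was 0.289. DESeq2 1.42.0 and limma-voom 3.58.1 were alternatives. SE was derived as the absolute log2 fold change divided by the root of the F statistic. CPM uses TMM library sizes, and log2 CPM per library a prior count of 2. A floor of 3 counts stands in for 0. The steps were tested on simulated counts. Sequences are from RefSeq (GRCh38.p14), matched by symbol.

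All members are described, and from each other list up to 4 genes with the lowest unadjusted p were candidates for naming. KLF15, KLF16, SIN3A, CTBP1 and some named pathway, marker and immediate-early genes were added after their values were seen. The members and lists were chosen with earlier results of these data known.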

Additional observations from a re-analysis of the deposited data

How the results depend on the processing

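The count of genes called was 0 in edgeR with TMM, with DESeq2 size factors, without the filter on low counts, at an adjusted p under 0.01 and in limma-voom, and 283 in DESeq2. With 1 library left out it ranged from 0 to 2550. For the 10 Krüppel-like factors it was 0 in the same fits, 2 in DESeq2 and 0 to 6 with 1 library left out, and for the related genes 0 (16 of 80 at an unadjusted p under 0.05), 5 in DESeq2 and 0 to 26. A fit with 1 library in a group assumes that it varies like the other group. The count of all genes called rose when either shSETD8 library was absent, which removes the spread between the shSETD8 clones. KLF3, KLF4, KLF9, KLF11 and KLF13 kept their sign in all 8 alternatives. The sign turned for KLF6 (0.31, range -0.38 to 0.78 with 1 library left out), KLF7 (-0.027, range -0.49 to 0.32), KLF5 (0.024, range -0.054 to 0.096) and KLF10 (0.17, range -0.008 to 0.36). A prior count of 0.5 in place of 2 moved KLF2 from 4.01 to 5.95 in shSETD8 replicate 1 and from 1.54 to 3.11 in replicate 2, so its size on the log2 scale has no fixed value. No paired analysis was possible because the labels give no replicate numbers. Depth limits KLF2 and, in shNull, KLF4.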
